A study of Arabidopsis thaliana with 16 samples.

Results

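The cellulose synthase-like A (CSLA) family of Arabidopsis thaliana was described in leaves of 4 genotypes. Its 9 loci were taken by locus code from a table of 27826 probe sets, and all 9 were measured, each by 1 probe set. Leaf RNA of 6-week-old plants was hybridised to 16 Affymetrix arrays, 4 for each genotype. They were wild type (WT), a knockdown in which an artificial microRNA targets NAA10 (amiNAA10), and plants with a T-DNA insertion in HYPK. The insertion lies in exon 1 in one line and in exon 2 in the other, which gives both lines their names here (exon 1 line, exon 2 line). All plants grew untreated on soil in short days of 8.5 h light, with days at 22 °C and nights at 18 °C. The labels call both HYPK lines knockouts, and each mutant genotype is represented by 1 line.

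NAA10 is the catalytic subunit of the N-terminal acetyltransferase complex NatA, and HYPK is a small protein that binds NatA. The CSLA proteins are Golgi glycosyltransferases that polymerise the backbone of mannan and glucomannan, hemicelluloses of the cell wall, from GDP-mannose and GDP-glucose. CSLA02, CSLA03 and CSLA09 together make the glucomannan of the stem. CSLA07 is needed for embryo and pollen tube growth. No role is stated here for CSLA01, CSLA10, CSLA11, CSLA14 or CSLA15. No sequence is printed, because none of the files used here holds the family's sequences.

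Values are log2 expression levels after robust multi-array averaging (RMA), and a difference of 1 is a doubling. NAA10 averaged 4.96 ± 0.10 (SD, n = 4) in WT and 2.89 ± 0.16 in amiNAA10, a fall of 2.07 (SE 0.12; limma adjusted p = 2.46e-08). HYPK averaged 5.66 ± 0.08 in WT and 4.72 ± 0.14 in the exon 1 line, which was lower (limma adjusted p = 0.000155). In the exon 2 line HYPK averaged 5.40 ± 0.27 and did not pass the test (limma adjusted p = 0.191), so this signal does not check that line's label; where the probes lie in HYPK is not given in the sources used here. Arrays of 1 genotype correlated at 0.974 to 0.990 over all probe sets. Replicate 4 of the exon 2 line stood apart on the first principal component, at -44.3 against -1.87 to 15.5 for the other exon 2 arrays. Whether the 4 samples of a genotype came from separate plants is not stated in the labels. The p-values therefore weigh each difference only against the spread of these samples, and part of that spread may be technical.

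Members with a large difference from WT were lower in all mutant lines. CSLA01 lay more than 4 log2 units below WT in each line, CSLA09 lay 1.15 to 1.53 below, and CSLA02 lay 0.79 to 0.97 below. CSLA10 and CSLA15 lay below WT on average, with arrays that overlapped WT. CSLA03, CSLA07, CSLA11 and CSLA14 were not called by limma in any line. CSLA01 was selected for its fall against WT seen in earlier results of these data, so its values are a description with no test. The other 8 members entered by family name and were tested with limma across all probe sets, with a Benjamini-Hochberg adjusted threshold of 0.05.

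**Figure D1:**
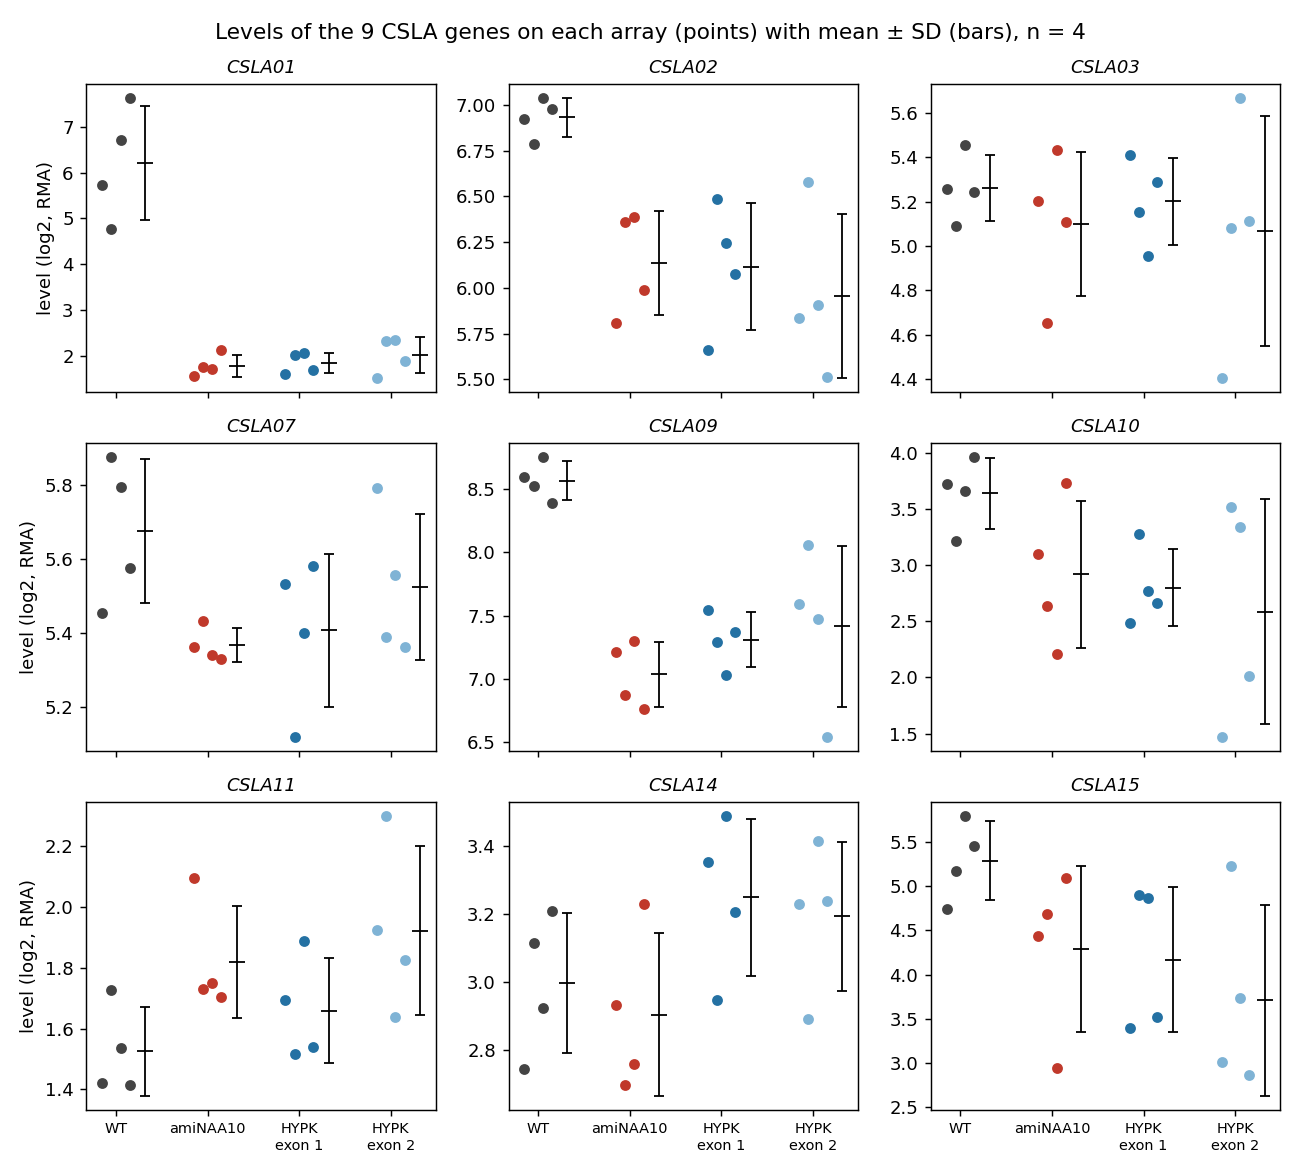
Level (log2, y axis) of the 9 CSLA members on each of the 16 arrays, grouped by genotype on the x axis, with 1 panel per gene. Points are arrays and bars are the mean ± SD of 4 arrays; the mutant arrays of CSLA01, CSLA02 and CSLA09 lie below every WT array.

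CSLA01 (AT4G16590) was at 5.73, 4.77, 6.71 and 7.63 in WT replicates 1 to 4. It was at 1.55, 1.75, 1.72 and 2.12 in amiNAA10. It was at 1.60, 2.01, 2.05 and 1.70 in the exon 1 line and at 1.52, 2.33, 2.34 and 1.88 in the exon 2 line. Every mutant array lay below every WT array, and the 3 mutant genotypes overlapped each other. WT itself was spread over 2.87 log2 units, a 7.31-fold range, with a mean of 6.21 ± 1.24 (SD, n = 4). The mean differences from WT were -4.43 in amiNAA10, -4.37 in the exon 1 line and -4.19 in the exon 2 line, each with an SE of 0.41. Back-transformed, the mutant means were 4.65%, 4.84% and 5.47% of the WT mean.

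The mutant values of CSLA01 lie at the dim end of the arrays. Between 17.9% and 40.4% of probe sets were dimmer than CSLA01 on the mutant arrays, against 66.1% to 94.3% on the WT arrays. Across the table, 30% of probe sets had a mean level below 1.83, and the amiNAA10 mean of 1.78 ± 0.24 (SD, n = 4) was under that level. The exon 1 mean of 1.84 ± 0.22 and the exon 2 mean of 2.02 ± 0.39 were just above it. The table carries no detection call, so the size of these falls may be understated. In whole leaves, fewer cells of a type and less RNA per cell cannot be told apart.

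The WT arrays set the size of the CSLA01 difference. With each array left out in turn, the amiNAA10 difference ran from -4.91 to -3.95, the exon 1 difference from -4.85 to -3.89 and the exon 2 difference from -4.67 to -3.72. The mutant lines cannot be ranked at such dim levels. The exon 1 line minus the exon 2 line was -0.18 (95% interval -1.04 to 0.69), and the mean of both HYPK lines minus amiNAA10 was 0.14 (95% interval -0.61 to 0.90). Both intervals use a spread pooled over the 4 genotypes. The SD was 1.24 in WT and 0.22 to 0.39 in the mutant genotypes, so WT scatter widens them although WT is in neither comparison.

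The loci on either side of CSLA01 were examined after its values were seen. AT4G16580 was lower in amiNAA10 by 0.36 (limma adjusted p = 0.0182; 0.0805 after scaling to 6 reference genes, range 0.00985 to 0.0805), with differences of 0.04 (limma adjusted p = 0.846) and 0.15 (limma adjusted p = 0.396) in the exon 1 and exon 2 lines. PGSIP8 (AT4G16600) differed from WT by 0.36, 0.18 and 0.34 in amiNAA10, the exon 1 line and the exon 2 line, with limma adjusted p-values of 0.46, 0.763 and 0.547. Neither neighbour was lower than WT in all 3 mutant genotypes.

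CSLA09 (AT5G03760), known from the rat4 mutant that resists Agrobacterium transformation, fell in every line. It was at 8.59, 8.53, 8.75 and 8.38 in WT and at 7.21, 6.88, 7.30 and 6.76 in amiNAA10. It was at 7.55, 7.29, 7.03 and 7.37 in the exon 1 line and at 7.59, 8.06, 7.48 and 6.54 in the exon 2 line. All 12 mutant arrays lay below all 4 WT arrays, and exon 2 replicates 2 and 4 were the highest and the lowest of the mutant arrays. The WT mean was 8.56 ± 0.15 (SD, n = 4).

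The CSLA09 difference was -1.53 in amiNAA10 (SE 0.23; limma adjusted p = 0.00013), which put that mean at 34.7% of WT. It was -1.25 in the exon 1 line (limma adjusted p = 0.00153; 41.9% of WT). It was -1.15 in the exon 2 line (limma adjusted p = 0.00485; 45.2% of WT). Each exact two-sided permutation test of 4 arrays against 4 gave p = 0.0286, the smallest such a design allows. The exon 2 difference was -0.85 without replicate 4 of that line (limma adjusted p = 0.00753). Over the 23 alternatives run, the adjusted p of the exon 2 fall stayed between 0.0012 and 0.0291.

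CSLA02 (AT5G22740), which also makes glucomannan of the seed mucilage, fell in every line, by 0.79 to 0.97. It was at 6.92, 6.79, 7.04 and 6.98 in WT and at 5.81, 6.36, 6.39 and 5.99 in amiNAA10. It was at 5.66, 6.49, 6.24 and 6.08 in the exon 1 line and at 5.83, 6.58, 5.91 and 5.51 in the exon 2 line. WT arrays were tightly grouped at 6.93 ± 0.11 (SD, n = 4), and no mutant array reached them. The differences were -0.79 in amiNAA10 (SE 0.21; limma adjusted p = 0.00772), -0.81 in the exon 1 line (limma adjusted p = 0.0115) and -0.97 in the exon 2 line (limma adjusted p = 0.00644). The mutant means were 57.6%, 56.8% and 50.9% of WT, and each exact two-sided permutation p was 0.0286, the smallest possible.

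CSLA03 (AT1G23480), the remaining stem glucomannan synthase gene, passed no test. It averaged 5.26 ± 0.15 (SD, n = 4) in WT, 5.10 ± 0.33 in amiNAA10, 5.20 ± 0.20 in the exon 1 line and 5.07 ± 0.52 in the exon 2 line. The exon 2 arrays ran from 4.41 to 5.67 and covered the whole WT range. The differences from WT were -0.16 (limma adjusted p = 0.63), -0.06 (limma adjusted p = 0.886) and -0.19 (limma adjusted p = 0.607). The sign in the HYPK lines is not settled: with single arrays left out, the exon 1 difference ran from -0.13 to 0.02 and the exon 2 difference from -0.40 to 0.03.

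CSLA15 (AT4G13410) was at 4.74, 5.17, 5.80 and 5.45 in WT and at 4.44, 4.68, 2.95 and 5.09 in amiNAA10. It was at 3.40, 4.90, 4.87 and 3.52 in the exon 1 line and at 3.02, 5.22, 3.73 and 2.87 in the exon 2 line. Each mutant genotype had at least 1 array within the WT range and at least 1 array more than 1 log2 unit below it. The SD was 0.45 in WT and 0.82 to 1.08 in the mutant genotypes.

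The CSLA15 differences did not pass the test in any single line, at -1.0 in amiNAA10 (limma adjusted p = 0.166), -1.12 in the exon 1 line (limma adjusted p = 0.148) and -1.58 in the exon 2 line (limma adjusted p = 0.0523). The mean of both HYPK lines was lower by 1.35 (SE 0.45; limma adjusted p = 0.0394), at 39.2% of WT. That call ended when WT replicate 2, 3 or 4, exon 1 replicate 1 or 4, or exon 2 replicate 1, 3 or 4 was left out, and its adjusted p ran from 0.00737 to 0.125 over the 23 alternatives. The exon 2 difference was -2.08 (limma adjusted p = 0.00945) without replicate 2 of that line, the array that lay inside the WT range, and it also passed without amiNAA10 replicate 3 (limma adjusted p = 0.0331). In all it passed in 6 of 23 alternatives, with adjusted p-values up to 0.165.

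CSLA10 (AT1G24070) was at 3.72, 3.21, 3.66 and 3.96 in WT and at 3.10, 2.63, 2.21 and 3.73 in amiNAA10. It was at 2.48, 3.28, 2.77 and 2.66 in the exon 1 line and at 1.47, 3.52, 3.34 and 2.01 in the exon 2 line. The exon 2 arrays split into a pair within the WT range and a pair far below it, and each mutant genotype had at least 1 array in the WT range. The differences from WT were -0.72, -0.84 and -1.05, with limma adjusted p-values of 0.19, 0.151 and 0.0863. The mean of both HYPK lines differed by -0.95 (SE 0.34; limma adjusted p = 0.0553), and it passed in 6 of 23 alternatives, among them without amiNAA10 replicate 4, exon 1 replicate 2 or exon 2 replicate 2 or 3 (limma adjusted p = 0.0448, 0.0495, 0.0201 and 0.0315). Without amiNAA10 replicate 3 its adjusted p was just under the threshold and rounds to it. The exon 2 difference passed without exon 2 replicate 2 or 3 (limma adjusted p = 0.0288 and 0.0496; range 0.0288 to 0.236 over 23 alternatives).

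Arrays that were low in CSLA15 tended to be low in CSLA10. Over all 16 arrays their levels correlated at r = 0.84 (Spearman 0.83), and deviations from the genotype means correlated at 0.75. With all 16 arrays this was the highest such value among the 36 pairs of members. The next were 0.55 for CSLA02 with CSLA15 and 0.52 for CSLA01 with CSLA10, and the lowest was -0.58 for CSLA02 with CSLA14. Over the 12 mutant arrays alone, the deviations correlated at 0.85 for CSLA01 with CSLA10, 0.79 for CSLA10 with CSLA15 and 0.71 for CSLA01 with CSLA15, with CSLA01 at the dim end of the arrays. Each point is 1 array, and levels on an array share its RNA and its normalisation; the values are descriptions. Whether probe sets of similar family members detect each other's transcripts was not tested.

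**Figure D2:**
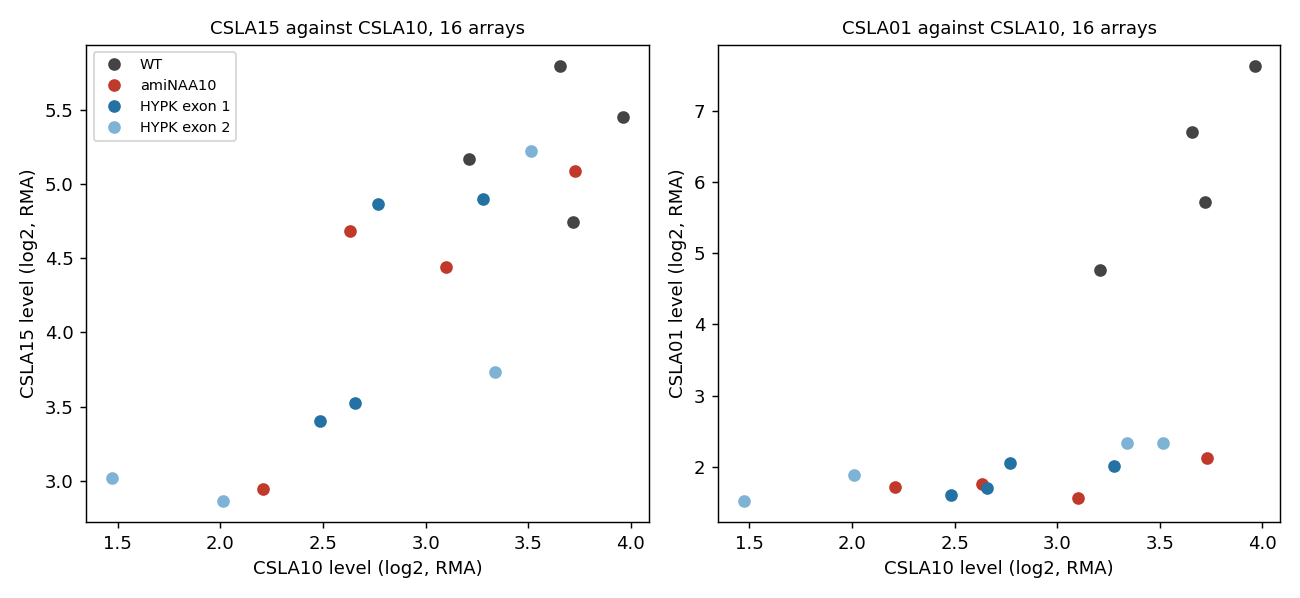
Level of CSLA15 and level of CSLA01 (log2, y axes) against the level of CSLA10 (log2, x axis), with 1 point for each of 16 arrays coloured by genotype. After removing genotype means, CSLA15 and CSLA10 vary together over all 16 arrays pooled (r = 0.75) and over the 12 mutant arrays (r = 0.79). The WT arrays alone are not in the same order, with replicate 1 lowest in CSLA15 (4.74) and replicate 2 lowest in CSLA10 (3.21). CSLA01 on the mutant arrays, all far below WT, varies with CSLA10 as well (r = 0.85 over 12 arrays after the same step).

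CSLA07 (AT2G35650) was at 5.46, 5.88, 5.79 and 5.58 in WT and at 5.36, 5.43, 5.34 and 5.33 in amiNAA10. The amiNAA10 arrays all lay below WT, with the highest of them at 5.43 and the lowest WT array at 5.46. The exact two-sided permutation p was 0.0286, the smallest possible. The difference of -0.31 did not pass the adjusted threshold (SE 0.13; limma adjusted p = 0.0856), and it passed without WT replicate 1 (limma adjusted p = 0.0489; range 0.0489 to 0.241 over 23 alternatives). The exon 1 and exon 2 lines differed from WT by -0.27 (limma adjusted p = 0.169) and -0.15 (limma adjusted p = 0.499), and their arrays overlapped WT.

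CSLA14 (AT3G56000) averaged 3.0 ± 0.21 (SD, n = 4) in WT, 2.90 ± 0.24 in amiNAA10, 3.25 ± 0.23 in the exon 1 line and 3.19 ± 0.22 in the exon 2 line. The genotypes overlapped, and no difference from WT passed the test. CSLA11 (AT5G16190) was dim throughout, at 1.52 ± 0.15 in WT, 1.82 ± 0.18 in amiNAA10, 1.66 ± 0.17 in the exon 1 line and 1.92 ± 0.28 in the exon 2 line. Its differences from WT of 0.30, 0.13 and 0.40 had limma adjusted p-values of 0.138, 0.576 and 0.0768. The exon 2 value passed without exon 2 replicate 3 (0.49; limma adjusted p = 0.0435), out of 22 alternatives with a range of 0.0435 to 0.212.

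**Figure D3:**
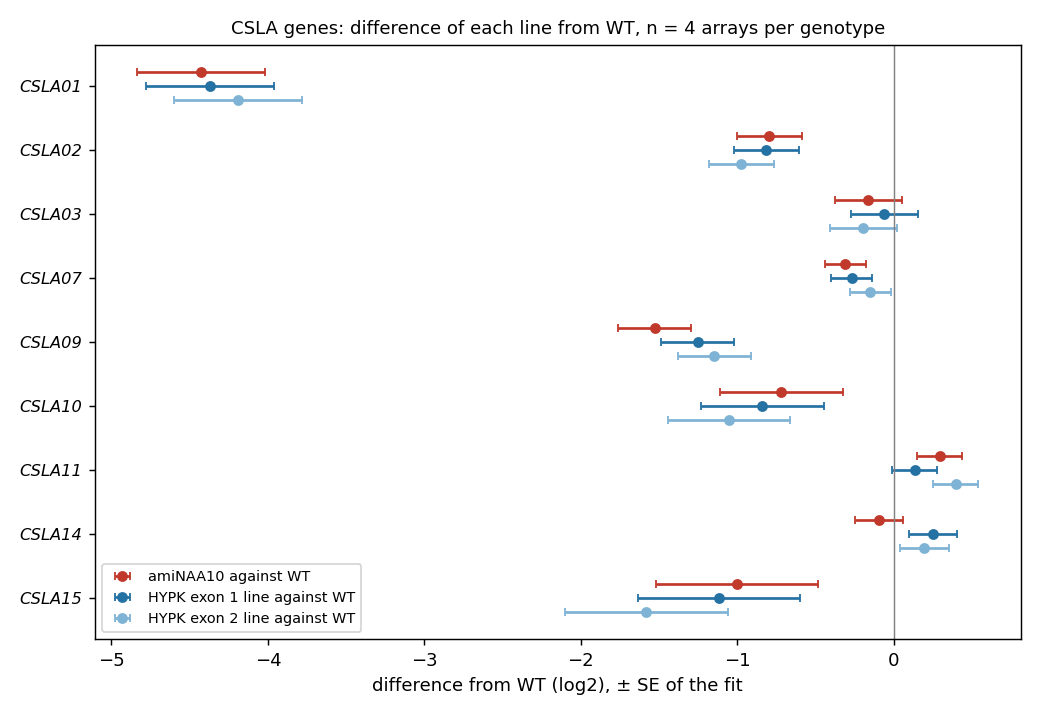
Difference from WT (log2, one axis) of each CSLA member (other axis) in amiNAA10, the exon 1 line and the exon 2 line, with bars of 1 SE of the fit. CSLA01, which was not tested, lies beyond -4 in the 3 genotypes. Of the tested members, CSLA09 and CSLA02 passed the test in each. CSLA11 lies above 0 in the 3 genotypes and CSLA14 in the HYPK lines, and neither passed the test.

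Of the 8 tested members, 2 were lower and 0 higher in amiNAA10, where 30.7% of all probe sets were called and 15.4% were called lower. In the exon 1 line 2 were lower and 0 higher, against 19.6% called and 9.89% called lower. In the exon 2 line 2 were lower and 0 higher, against 13.8% called and 6.82% called lower. Without exon 2 replicate 2, 4 members were lower, with CSLA10 and CSLA15 added. Without exon 2 replicate 3, 3 were lower, with CSLA10 added, and CSLA11 was higher. The shares of all probe sets in these refits were not counted. With all arrays, the called members in each of these lines were CSLA02 and CSLA09. For the mean of both HYPK lines 3 were lower, with CSLA15 added, against 22.7% called and 11.5% called lower, and the count ran from 2 to 4 with single arrays left out. It was 2 without any of the 8 arrays on which the CSLA15 call rested, except exon 2 replicate 3, where CSLA10 took its place. It was 4 without amiNAA10 replicate 3 or 4, exon 1 replicate 2 or exon 2 replicate 2. Of the 9 members, 4 had every amiNAA10 array below every WT array, against 15.3% of all probe sets, namely CSLA01, CSLA02, CSLA07 and CSLA09. In the exon 1 line 3 members did so, against 11.2%, and in the exon 2 line 3 did, against 8.29%. With the arrays of both HYPK lines pooled, 3 did, against 5.92%, and no member lay above WT on all arrays of any line. CSLA01 counts among these although it was chosen for its fall. All of these comparisons share the WT arrays.

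The median difference of the 9 members was -0.72 in amiNAA10, -0.81 in the exon 1 line and -0.97 in the exon 2 line. Over all probe sets the medians were -0.02, -0.02 and -0.01. Without CSLA01 the family medians were -0.51, -0.54 and -0.58. The family median thus lay below that of all probe sets with and without the member that was chosen for its fall.

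The mutant lines were also compared with each other. Between the exon 1 and exon 2 lines, 0 of 8 members were called by limma and 0 had an unadjusted p under 0.05; 0.00719% of all probe sets were called. Between the mean of both HYPK lines and amiNAA10, 0 of 8 were called by limma, against 10.2% of all probe sets. There 1 member, CSLA14, had an unadjusted p under 0.05, and the share of all probe sets at that level was not counted. CSLA14 was 0.32 higher in the HYPK lines (95% interval 0.03 to 0.60; limma adjusted p = 0.156). CSLA09 was 0.33 higher in the HYPK lines (95% interval -0.10 to 0.75; limma adjusted p = 0.365). Without exon 2 replicate 4, the CSLA09 difference was 0.47 and passed the threshold (limma adjusted p = 0.0378; range 0.0378 to 0.603 over 23 alternatives). For CSLA02 the difference was -0.10 (95% interval -0.48 to 0.28).

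The genes whose levels followed 3 of the members most closely over the 16 arrays were named by their Pearson correlation. For CSLA01 they were MRD1 (0.93), the bHLH factor gene NIG1 (0.92), ACD2 of chlorophyll breakdown (0.92), the guard cell anion channel gene ALMT12 (0.92) and the Aux/IAA gene PAP2 (0.91). All of these lay below WT in amiNAA10, the exon 1 line and the exon 2 line. In that order MRD1 lay 2.53, 2.44 and 2.29 below, NIG1 1.74, 1.39 and 1.30, and ACD2 1.04, 0.90 and 0.78. ALMT12 lay 2.05, 1.91 and 1.71 below, and PAP2 0.82, 0.91 and 0.77. For CSLA09 they were AMY3 of a plastid alpha-amylase (0.98), the tubulin gene TUB6 (0.96) and ADG1, the small subunit of ADP-glucose pyrophosphorylase (0.96). For CSLA02 they were CRL2 (0.92), the myosin gene XIB (0.91) and GLX1 (0.90). Each correlation includes the step between WT and mutant arrays and carries no test.

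Part of the genes that supply GDP-mannose were lower in amiNAA10. Of 7 tested, 3 were lower and 0 higher in amiNAA10, with a list median of -0.21; 42.9% of the list was called, against 30.7% of all probe sets. In the exon 1 line 1 was lower, which is 14.3% of the list and below the 19.6% of all probe sets. In the exon 2 line limma called 0, against 13.8% of all probe sets. There 2 were lower at an unadjusted p under 0.05, and 1 was called without exon 2 replicate 3. The share of all probe sets was not counted for either, so these 2 counts have no background to be read against. DIN9, a phosphomannose isomerase gene, was lower by 1.13 in amiNAA10 (limma adjusted p = 5.19e-05) and by 0.60 in the exon 1 line (limma adjusted p = 0.0125), with a difference of -0.25 in the exon 2 line (limma adjusted p = 0.317). CYT1, which encodes GDP-mannose pyrophosphorylase, was lower by 1.05 in amiNAA10 (limma adjusted p = 0.000493). KJC1, whose product stimulates that enzyme, was lower by 0.48 (limma adjusted p = 0.00173).

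Genes of mannan synthesis partners and side chains were lower in part. Of 7 tested, 5 were lower and 0 higher in amiNAA10 (median -0.54; 71.4% called, against 30.7%), 2 were lower in the exon 1 line and 1 in the exon 2 line. The counts in the HYPK lines were 28.6% and 14.3% of the list, against 19.6% and 13.8% of all probe sets. The exon 2 share was thus near the background. The exon 1 count was 1 without exon 1 replicate 3. The exon 2 count was 2 without WT replicate 3 or exon 1 replicate 1 or 2, and 3 without exon 2 replicate 2. TBL24, a mannan O-acetyltransferase gene, was lower by 1.14, 1.02 and 1.0 in amiNAA10, the exon 1 line and the exon 2 line (limma adjusted p = 1.89e-05, 0.00017 and 0.000307). TBL26 of the same family was lower by 3.25 in amiNAA10 (SE 0.51; limma adjusted p = 0.000157), with differences of -1.48 and -1.54 in the HYPK lines (limma adjusted p = 0.051 and 0.0552). For the mean of both HYPK lines TBL26 was lower by 1.51 (limma adjusted p = 0.0209), a call that held in 22 of 23 alternatives. TBL25 was lower by 0.46 (limma adjusted p = 0.00555) and MSR2, which promotes mannan synthesis, by 0.54 (limma adjusted p = 0.0104), both in amiNAA10.

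Genes of mannan breakdown moved in both directions. Of 11 tested, 3 were higher and 6 lower in amiNAA10, 1 higher and 4 lower in the exon 1 line, and 1 higher and 3 lower in the exon 2 line. These were 81.8%, 45.5% and 36.4% of the list, against 30.7%, 19.6% and 13.8% of all probe sets. MAN7, an endo-beta-mannanase gene, was lower by 1.20, 0.94 and 0.88 (limma adjusted p = 3.02e-05, 0.000667 and 0.00192). The alpha-galactosidase gene AGAL2 was lower by 0.97, 0.99 and 0.76 (limma adjusted p = 0.000186, 0.000468 and 0.00501). Its relative AGAL3 was higher by 0.95, 0.80 and 0.81 (limma adjusted p = 7.34e-05, 0.000805 and 0.0014). BGLU44, a beta-glycosidase gene of mannan oligosaccharides, was higher by 0.80 in amiNAA10 (limma adjusted p = 0.0104), with differences of -0.37 and -0.24 in the HYPK lines that did not pass the test.

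**Figure D4:**
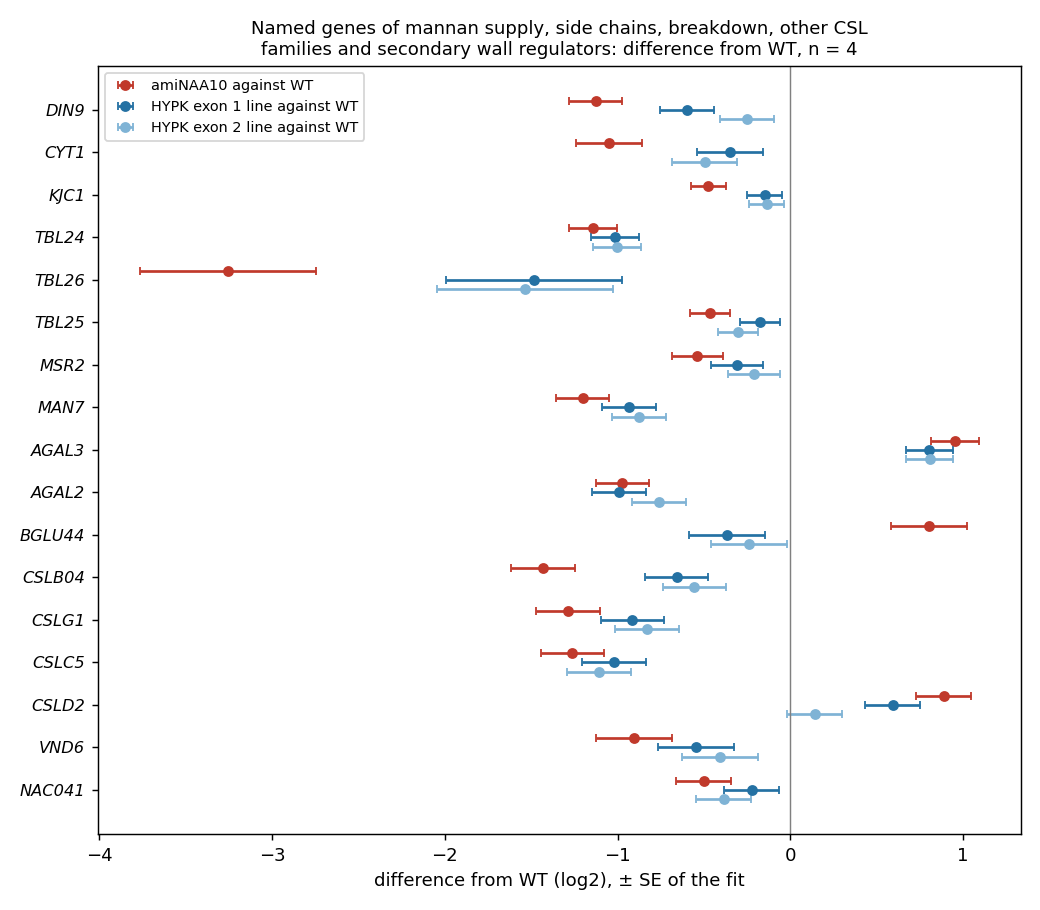
Difference from WT (log2, one axis) of 17 genes of the mannan, cellulose synthase-like and wall regulator lists (other axis) in amiNAA10, the exon 1 line and the exon 2 line, with bars of 1 SE of the fit. TBL26 has the lowest value, in amiNAA10, while AGAL3 lies above 0 in the 3 genotypes.

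Among 21 other cellulose synthase-like genes, 2 were higher and 4 lower in amiNAA10, 2 higher and 4 lower in the exon 1 line, and 1 higher and 2 lower in the exon 2 line. The shares called were 28.6%, 28.6% and 14.3%, against 30.7%, 19.6% and 13.8% of all probe sets, so the shares in amiNAA10 and the exon 2 line were near the background. Without WT replicate 4, 5 were called in the exon 2 line, and the share of all probe sets in that refit was not counted. CSLC5, of xyloglucan backbone synthesis, was lower by 1.26, 1.02 and 1.11 (limma adjusted p = 8.55e-05, 0.0012 and 0.00122). CSLG1 was lower by 1.28, 0.91 and 0.83 (limma adjusted p = 7.68e-05, 0.00269 and 0.00807). CSLB04 was lower by 1.43 in amiNAA10 (limma adjusted p = 2.91e-05) and by 0.66 in the exon 1 line (limma adjusted p = 0.0187), a call that ended without exon 1 replicate 3 or 4 (limma adjusted p = 0.0521 and 0.0555). CSLD2, of root hair tip growth, was higher by 0.89 in amiNAA10 (limma adjusted p = 0.000464) and by 0.59 in the exon 1 line (limma adjusted p = 0.015), where the call ended without WT replicate 3 (limma adjusted p = 0.0505). CSLG2, named after its values were seen, was higher by 3.0, 2.81 and 2.11 (limma adjusted p = 0.00219, 0.00682 and 0.0418). Its exon 2 arrays ran from 2.82 to 6.80, the lowest of them within the WT range of 2.16 to 3.46. The exon 2 call was lost in 10 of 23 alternatives, among them without WT replicate 1, 2 or 3, amiNAA10 replicate 1, 3 or 4, or exon 2 replicate 3 or 4, with adjusted p-values up to 0.144. CSLG3, also named after its values were seen, went the other way. It had the lowest difference of the list in amiNAA10 (-1.64) and in the exon 1 line (-1.28). It averaged 4.94 ± 0.26 (SD, n = 4) in WT and 4.27 ± 0.62 in the exon 2 line.

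Of 8 secondary wall regulators, 2 were lower and 0 higher in amiNAA10, and 1 was called without WT replicate 3 or amiNAA10 replicate 2 or 3. The 2 genes are 25% of the list, below the 30.7% of all probe sets. VND6, of vessel identity, was lower by 0.90 (limma adjusted p = 0.00475), from 2.33 ± 0.48 (SD, n = 4) in WT to 1.43 ± 0.16 in amiNAA10. The amiNAA10 mean lay at the dim end, below the level of 1.83 under which 30% of probe sets averaged. NAC041 was lower by 0.50 (limma adjusted p = 0.0236). That call was lost when leaving out WT replicate 2 or 3 or amiNAA10 replicate 2 or 3, with adjusted p-values of 0.0535, 0.0553, 0.0844 and 0.0597. MYB46, a regulator known to act on CSLA09, differed by -0.28 (limma adjusted p = 0.37). In each HYPK line limma called 0 of 8, against 19.6% of all probe sets in the exon 1 line and 13.8% in the exon 2 line. At an unadjusted p under 0.05, 1 was lower in each line and 1 was higher in the exon 2 line. The share of all probe sets at that unadjusted p was not counted. Limma called 1 in the exon 1 line without WT replicate 1 or exon 1 replicate 3, and in the exon 2 line without WT replicate 2.

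Markers of leaf cell types also differed between WT and the lines in which CSLA02 and CSLA09 were lower, and their part in those differences was not tested. Over all probe sets, 30.7%, 19.6% and 13.8% were called in amiNAA10, the exon 1 line and the exon 2 line. In the same order, the shares called were 85.7%, 57.1% and 57.1% of the vascular list and 66.7%, 83.3% and 50% of the guard and myrosin cell list. For the mesophyll list they were 83.3%, 33.3% and 33.3%. Of 7 vascular markers, 6 were lower in amiNAA10, 4 in the exon 1 line and 4 in the exon 2 line, the last count being 2 without WT replicate 3 or exon 2 replicate 4. Their mean level per array ran from 5.44 to 5.69 in WT, 4.74 to 4.88 in amiNAA10, 4.97 to 5.17 in the exon 1 line and 5.07 to 5.28 in the exon 2 line. Of 6 guard and myrosin cell markers, 4, 5 and 3 were lower, with array means of 7.43 to 7.77 in WT, 6.84 to 7.03 in amiNAA10, 6.70 to 7.04 in the exon 1 line and 7.02 to 7.18 in the exon 2 line. Of 6 mesophyll markers, 5 were lower in amiNAA10, or 3 after scaling to 6 reference genes, and 2 in each HYPK line. The exon 2 count was 1 without WT replicate 1, 2 or 3 or exon 2 replicate 3 or 4. The mesophyll array means of 10.4 to 10.5 in WT match the leaf label, and the 5 floral markers were dim, with gene means from 1.16 to 1.82. Of 6 epidermis markers 1 was higher and 2 lower in amiNAA10, while 2 and 1 were lower in the exon 1 and exon 2 lines. These were 50%, 33.3% and 16.7% of the epidermis list, the last near the 13.8% of all probe sets. The exon 1 epidermis count was 1 without WT replicate 1 or 4 or exon 1 replicate 2 or 4. The root gene PYK10 was called higher in amiNAA10, by 1.86 on average. Its amiNAA10 arrays were widely spread, from 2.17 to 5.03, against 1.72 to 1.99 in WT. In the exon 1 and exon 2 lines PYK10 differed by 0.10 and -0.29 and was not called.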

How the data were processed

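The deposited table holds log2 expression levels that the authors made with RMA (per the submitters' processing notes); its version, the array design and the probe annotation were not given in the sources used here. The method quantile-normalises the arrays, so a shift of all transcripts would not be seen; sorted columns differed by at most 0.0019. Symbols came from a RefSeq table of TAIR10.1, which matched 27241 of 27826 probe sets and all 9 members. One limma model (3.58.1, R 4.3.3) with a mean per genotype was fitted to all 16 arrays. Its 6 two-sided contrasts were adjusted by Benjamini-Hochberg over all probe sets, without a filter. The procedure was tested on simulated data. Arrays have no read depth, and 4 arrays per genotype limit the precision.

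The members and lists were chosen with earlier results of these data known. All members were described. From each list, up to 4 called genes with the smallest adjusted p were named, and beside members the most correlated genes with a symbol (5 for CSLA01, 3 each for CSLA02 and CSLA09). Of 8 genes listed for GDP-mannose supply and 7 for epidermis, 1 each was dropped because the reference gives its symbol to another locus. The alternatives were a replicate block, an intensity trend, robust estimation, leaving out the dimmest 30% of probe sets, scaling to 6 reference genes, array weights, fits of the compared groups alone, and leaving out each array. List counts, CSLG2 and AT4G16580 under these alternatives and the neighbours of CSLA01 were added after seeing the data. The values of CSLG3 were added in the same way. Shares of all probe sets were counted in the main fit only, not under the alternatives. Promoter motifs were not analysed here.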

Additional observations from a re-analysis of the deposited data

Results flagged for a closer look

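In 104 groups of 4 arrays (26 genes), 7 held 1 array far from the other three by Dixon's criterion, where chance gives about 1 in 20. In the family this was CSLA11 in amiNAA10, where replicate 1 was at 2.1 and the others were at 1.75 or lower. The other such arrays were TBL25 in WT at 6.42, MAN7 in WT at 5.61, AGAL2 in the exon 1 line at 4.49, CSLB04 in WT at 6.93, CSLG1 in WT at 3.84 and VND6 in amiNAA10 at 1.67.

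For the mean of both HYPK lines minus amiNAA10, limma's adjusted p called no tested CSLA member and 10.2% of all probe sets. It called 7 of the 17 named list genes. Those were named for small adjusted p-values, this contrast included, so their count does not describe the lists. Of the full lists, 42.9% of GDP-mannose supply, 14.3% of synthesis partners and 9.09% of breakdown were called. The shares were 9.52% of other cellulose synthase-like genes and 0% of secondary wall regulators. DIN9 was higher by 0.70 (limma adjusted p = 0.00371), CYT1 by 0.63 (limma adjusted p = 0.0225) and KJC1 by 0.33 (limma adjusted p = 0.0227). The CYT1 call ended without amiNAA10 replicate 2 or 3 (limma adjusted p = 0.0694 and 0.102). The KJC1 call ended without the same arrays (limma adjusted p = 0.108 and 0.0612) and after scaling to 6 reference genes (limma adjusted p = 0.103). TBL26 was higher by 1.75 (limma adjusted p = 0.0191), a call that ended without amiNAA10 replicate 2 or 3 (limma adjusted p = 0.0668 and 0.0894). CSLB04 was higher by 0.83 (limma adjusted p = 0.00401). BGLU44 differed by -1.11 (limma adjusted p = 0.00193) and CSLD2 by -0.52 (limma adjusted p = 0.0238); the CSLD2 call ended without amiNAA10 replicate 1, 2 or 4 (limma adjusted p = 0.0686, 0.0572 and 0.0787).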

How the results depend on the processing

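The calls of CSLA02 and CSLA09 against WT held in each line in all 23 alternatives, with adjusted p-values up to 0.0364 and 0.0291. With single arrays left out, the number of members called ran from 2 to 3 in amiNAA10, from 2 to 4 in the exon 2 line, from 2 to 4 for the mean of both HYPK lines and from 0 to 1 for the HYPK lines against amiNAA10; it stayed at 2 in the exon 1 line. With the replicate number as a block, 2, 2, 3 and 3 members were called in amiNAA10, the exon 1 line, the exon 2 line and both HYPK lines averaged; the third in the exon 2 line was CSLA15 (limma adjusted p = 0.046). No pairing by number was evident: 24 same-numbered pairs correlated at -0.29 to 0.30, 5 of them above 0.1, and 6 of 16 arrays correlated best with their own number. Whether same-numbered samples shared a batch was not tested. The CSLA15 call for both HYPK lines also ended with array weights (limma adjusted p = 0.0714). CSLA10 in the exon 1 line passed when only its own and the WT arrays were fitted (limma adjusted p = 0.0153; range 0.0153 to 0.272). Of the list counts, synthesis partners in the exon 2 line went from 1 to 2 with an intensity trend, without the dimmest 30% of probe sets or scaled to reference genes. Mesophyll markers in the exon 2 line went from 2 to 1 with array weights or the compared groups alone, and epidermis markers in the exon 1 line from 2 to 1 with an intensity trend or scaling. Signs changed only for small differences that passed no test. Scaled to 6 reference genes, CSLA03 in the HYPK lines minus amiNAA10 went from 0.04 to -0.034. With single arrays left out, that CSLA03 difference ran from -0.11 to 0.15, CSLA03 in the exon 1 line against WT from -0.13 to 0.023, and CSLA03 in the exon 2 line against WT from -0.40 to 0.026. For the exon 1 line minus the exon 2 line the ranges were -0.086 to 0.34 for CSLA03, -0.40 to 0.11 for CSLA09, -0.16 to 0.52 for CSLA10 and -0.046 to 0.16 for CSLA14. For the HYPK lines minus amiNAA10 they were -0.46 to 0.044 for CSLA10 and -0.092 to 0.062 for CSLA11. The causes were not tested. The dim levels of CSLA01 in the mutant lines and of CSLA11 throughout limit what can be read from their sizes.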
